A study of Mus musculus with 10 samples.

Results

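Melanocytes (Mc) and dermal papilla cells (DP) of the mouse hair follicle were compared on all 22626 non-control probe-sets of the array, from the 2 arrays of each population among 10 arrays in the series. Every probe-set was a member, in both directions. A total of 20380 probe-sets were annotated to 1 gene each and stood for 12393 genes, each read by its brightest probe-set, 691 were annotated to several genes and 1555 to none. The series profiled 5 cell populations of the growing follicle and its dermis, 2 arrays each, and the other 3 were matrix (Mx), outer root sheath (ORS) and dermal fraction (DF).

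All cells came from the backskin of 4-day-old mice that carried 2 transgenes, Lef1-RFP, in which a fragment of the human Lef1 promoter drives a red fluorescent protein, and K14-H2BGFP, in which the keratin 14 promoter drives a green histone fusion in epithelium. Both Mc and DP were sorted as bright red cells without green. They differed by CD117, the protein of the Kit gene. Mc were gated as positive for it in a labelling of their own, whereas DP were collected after cells with CD117, CD45 or CD34 had been removed on a magnet. DF was the fraction of the same depleted dermis with neither reporter. Cells of 5 backskins were pooled per preparation and the RNA went through 1 round of amplification. The study names 2 independent datasets but the labels do not say which samples of different populations share a preparation, and nothing states that replicates came from different litters, so adjusted p values measure the spread between these arrays.

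Dermal papilla cells are a condensed mesenchyme at the base of the follicle that sends growth signals to the surrounding epithelium. Melanocytes of the hair bulb descend from the neural crest, sit at the top of the papilla and hand pigment granules, the melanosomes, to the keratinocytes of the hair shaft. Melanin is made inside melanosomes by tyrosinase and its relatives, under the transcription factor Mitf and the receptors Mc1r, Kit and Ednrb, and melanosomes belong to the same family of organelles as lysosomes. The papilla is the source of agouti, the secreted antagonist of Mc1r that turns pigment yellow.

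All 5 marker genes were called, each in the direction of the labels. The signals of Mc1r, the melanocortin receptor, were 2147 and 1635 in Mc and 274 and 129 in DP, those of Kit 2989 and 2651 in Mc and 622 and 376 in DP, and those of Mlph, the melanophilin that links melanosomes to the actin motor, 1203 and 1564 in Mc and 404 and 175 in DP. All Mc arrays lay above all DP arrays for these genes, by 7.98-fold, 5.36-fold and 4.46-fold on the log2(signal + 50) scale that is used throughout (log2 differences of 3.0 ± 0.34, 2.42 ± 0.34 and 2.16 ± 0.32, Mc minus DP ± SE). Zic1 and Sox2, transcription factors of the papilla, had signals of 21.5 and 21.9 and 0.4 and 1.6 in Mc and 1411 and 1314 and 325 and 426 in DP (log2 differences of -4.30 ± 0.19 and -3.05 ± 0.15), with the order turned round. Adjusted p values were 0.00022 for Mc1r, 0.001 for Kit, 0.0013 for Mlph, 4.9e-07 for Zic1 and 9.2e-07 for Sox2. Zic1 and Sox2 were chosen by the study for the papilla on these arrays, so their direction is no independent evidence for the labels. Kit was part of the gate, so its difference is a check and not a finding. Kit was nonetheless at 622 and 376 in DP, from which CD117-bearing cells had been removed, and at 347 and 152 in DF.

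In all, 976 probe-sets (4.31% of those tested) were higher in Mc and 2485 (11%) were higher in DP at an adjusted p under 0.05 in a limma fit over all 10 arrays. By gene the counts were 552 (4.45%) and 1589 (12.8%), and these shares are the background for each list count below. Sizes were unequal. Among called genes, 256 were at least 2-fold higher in Mc and 828 in DP, 0 in Mc and 113 in DP reached a log2 difference of 3, and 44 in DP reached 4. Such counts depend on the pseudocount of 50, and the largest difference in Mc, 2.997, lay just below 3. With a pseudocount of 1 the log2 difference was 3.31 for Mc1r and 3.86 for Trib1, and -9.29 for Crabp1 in the other direction. The split of the calls follows the scaling: Mc made up 28.2% of called probe-sets on the deposited scale, 49.8% after quantile normalization (1862 against 1877) and 59% after rescaling to equal medians (2287 against 1592), and the median difference over all probe-sets moved from -0.09 to 0.04 and 0.06. Median signals were 60.1 and 68.1 on the Mc arrays and 79.4 and 90.9 on the DP arrays. All 552 genes called higher in Mc kept their call under both rescalings, and of the 1589 called higher in DP 1231 kept it after quantile normalization and 1029 after rescaling to equal medians. Leaving out 1 of the 4 arrays gave 656 (without Mc replicate 1), 538 (Mc replicate 2), 618 (DP replicate 1) and 418 (DP replicate 2) probe-sets higher in Mc, and 1489, 1627, 2080 and 1403 higher in DP. Replicates correlated at 0.982 for Mc and 0.981 for DP over probe-sets on the log2 scale, and Mc with DP arrays at 0.875 to 0.901. Within bulk samples, fewer cells of a type and less RNA per cell cannot be told apart. Replicate 1 of both populations was hybridised on chips of one lot and replicate 2 on chips of another.

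**Figure D1:**
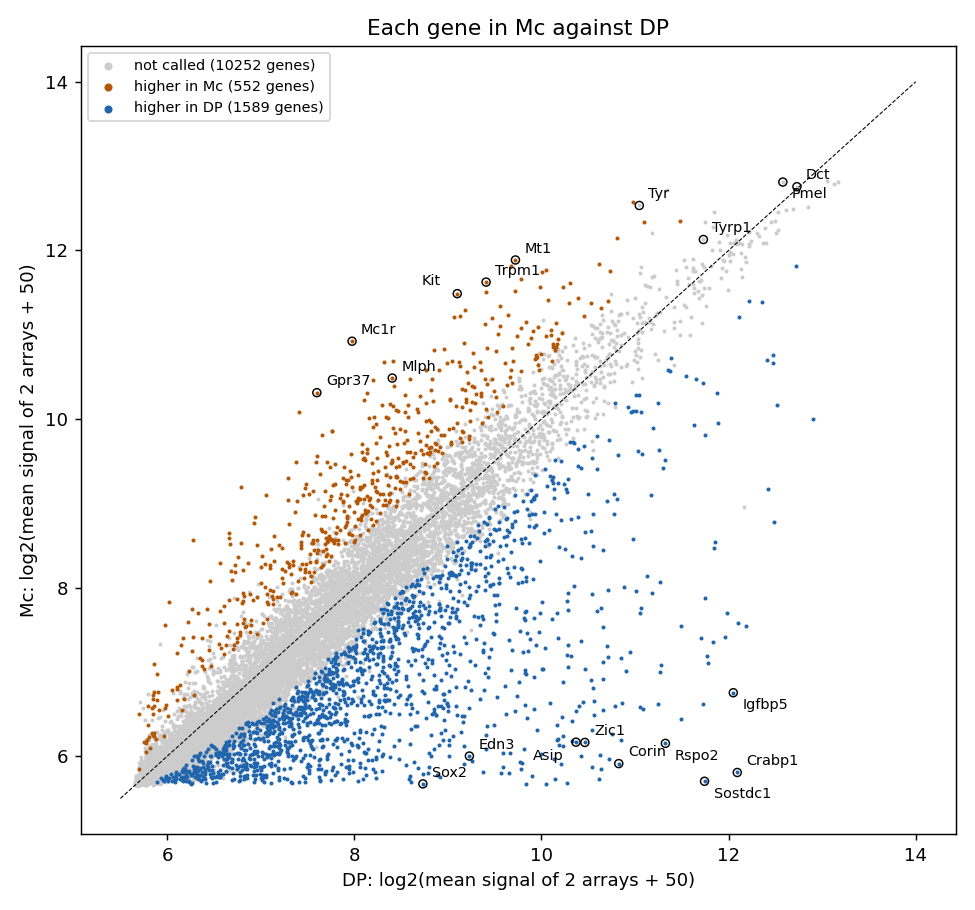
Each of the 12393 genes by its mean signal in DP (horizontal) and Mc (vertical), both as log2(mean of 2 arrays + 50); the dashed line marks equal signals, brown points are the 552 genes called higher in Mc and blue points the 1589 called higher in DP. Dct and Pmel lie on or beside the line at the top right, and Crabp1, Sostdc1 and Rspo2 lie at the bottom, where the Mc signal is at its lowest.

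The pigment genes are shown first by their promoters, since a short sequence, TCATGTG, the extended M-box to which Mitf is known to bind, stood in front of Tyr, Tyrp1, Dct and Trpm1. They are 4 pigment genes with high signals in Mc, of which Trpm1 was called by its brightest probe-set. The stretches below come from RefSeq on build GRCm38.p6, run 5′ to 3′ on the strand of the gene and end before its annotated start, and capitals mark TCATGTG or its reverse complement. They lie at chr7:87493513-87493569 (minus strand) for Tyr, chr4:80834131-80834207 (plus) for Tyrp1, chr14:118052356-118052496 (minus) for Dct and chr7:64153658-64153734 (plus) for Trpm1, and the first matching base is 22, 47, 232 and 142 bases before the start. A second match of Dct begins 151 bases before it.
Tyr: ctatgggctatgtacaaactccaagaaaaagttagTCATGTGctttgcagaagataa
Tyrp1: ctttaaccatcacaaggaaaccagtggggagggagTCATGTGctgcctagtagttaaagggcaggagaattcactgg
Dct: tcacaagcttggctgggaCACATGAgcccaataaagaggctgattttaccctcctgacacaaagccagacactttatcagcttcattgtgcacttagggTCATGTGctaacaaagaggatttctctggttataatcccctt
Trpm1: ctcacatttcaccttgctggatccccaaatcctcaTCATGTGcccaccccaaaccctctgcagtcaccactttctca

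Searched on both strands over 250 bases before to 50 after the start, TCATGTG was present in a promoter of 5 of 23 pigment genes (21.7%) that had a signal of at least 200 in both Mc arrays and a promoter in the table, the fifth being Vps41. Over all genes it was in 1165 of 27025 (4.31%), and over all promoters, of which a gene can have several, in 3.77% of 32851. It was in 0 of 14 papilla genes with such a signal in both DP arrays and a promoter. Of the genes on the array with a promoter, TCATGTG was in 303 of 9882 (3.07%), in 12 of 200 (6%) of those at least 2-fold higher in Mc and in 8 of 625 (1.28%) of those at least 2-fold higher in DP. The E-box CACGTG, which factors of the same family also bind, was in 1068 of 9882 (10.8%), in 38 of 200 (19%) and in 55 of 625 (8.8%). For CATGTG, which lies within TCATGTG, these shares were 11.4%, 13.5% and 8.32%. For CTTTGA, a core motif of the Lef family, they were 15.6%, 13.5% and 13.8%. For ACAAAG, a core motif of the Sox family, they were 17.8%, 18.5% and 18.6%, and for its variant ACAATG 10.2%, 10% and 8.64%. A match describes letters in a window and no binding. TCATGTG was searched as a known site of Mitf, under which melanin is made. The pigment genes were also picked by their Mc signal, so the share of TCATGTG among them is no independent evidence.

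Transcripts of the melanin pathway were abundant in both populations, and of the 5 members of the enzyme and melanosome matrix list 1, Gpnmb, was called. Dct, dopachrome tautomerase, had signals of 6471 and 7259.7 in Mc and 8070.2 and 5419.6 in DP, Pmel, which forms the fibrils on which melanin is laid down, 6950.4 and 7318 in Mc and 7438 and 4706 in DP, and Tyrp1 3919 and 4940.5 in Mc and 4192 and 2503 in DP. For Dct and Pmel the replicate 1 array of DP lay above both Mc arrays, and the groups overlapped for all of these 3 genes. The log2 differences were 0.05 ± 0.45 for Dct, 0.27 ± 0.53 for Pmel and 0.44 ± 0.53 for Tyrp1, with adjusted p values of 0.96, 0.8 and 0.66. The other 2 probe-sets of Tyrp1 gave 0.75 and 0.94 and were not called either. These p values do not show that the levels were equal. Without Mc replicate 2 or DP replicate 2 the count of this list fell to 0.

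Tyrosinase, the rate-limiting enzyme of melanin synthesis, was higher on both Mc arrays. Tyr signals were 5829 and 5921 in Mc and 2725 and 1403 in DP on the brightest probe-set, a log2 difference of 1.56 ± 0.51 that missed the threshold (adjusted p = 0.068) but passed it after rescaling to equal medians (0.035), in the fit of the 4 arrays alone (0.017), with chip lot as a block (0.038) and under both filters on low signals (0.018 and 0.021). Its other 2 probe-sets, with signals of 1292 and 1407 in Mc and 331 and 246 in DP and of 1135 and 1518 against 385 and 241, were called (log2 differences of 2.06 and 1.94, adjusted p = 0.00016 and 0.0087). Gpnmb, a melanosome glycoprotein, had 2566 and 4183 in Mc and 1255 and 706 in DP and was 3.35-fold higher in Mc (adjusted p = 0.01), a call lost without Mc replicate 2 (adjusted p = 0.094) or DP replicate 2 (adjusted p = 0.1).

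Among channels and transporters of the melanosome, 5 of 8 members were called higher in Mc, with a median log2 difference of 1.38 beside -0.10 over all genes. Trpm1, a cation channel of melanocytes, had 2602 and 3611 in Mc and 858 and 401 in DP, Gpr143, the melanosome receptor lost in ocular albinism, 2175 and 2482 in Mc and 677 and 295 in DP, and Mcoln3, a mucolipin cation channel, 1134 and 1604 in Mc and 436 and 240.4 in DP. For each, both Mc arrays lay above both DP arrays, and the group means differed by 4.87-fold, 4.74-fold and 3.73-fold in the fit (adjusted p = 0.0029, 0.0044 and 0.0036). Slc45a2, a transporter that keeps melanosome pH, reached 6673 and 5379 in Mc and 2294 and 1629 in DP (3.05-fold, adjusted p = 0.02), and its call was lost without Mc replicate 1 (0.13), Mc replicate 2 (0.069) or DP replicate 2 (0.15). The copper pump Atp7a was 1.51-fold higher (adjusted p = 0.048), a call lost without any 1 of the 4 arrays (adjusted p = 0.14, 0.2, 0.17 and 0.18) and with chip lot as a block (0.051). Oca2, the transporter lost in pink-eyed dilution, had 1471 and 3048 in Mc and 1337 and 629 in DP and was not called (log2 difference 1.16 ± 0.48, adjusted p = 0.14). Without Mc replicate 1, Mc replicate 2 or DP replicate 2 the count of this list was 3.

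Of 24 measured genes for the sorting of cargo to the melanosome, 7 were called higher in Mc and 0 higher in DP (median 0.11). Rab38, the small GTPase that carries tyrosinase, had 2799 and 2975 in Mc and 1054 and 527 in DP (3.68-fold, adjusted p = 0.0018). The other 6 were Hps1, Hps3, Hps4, Dtnbp1, Bloc1s5 and Rab32, of which Bloc1s5, the muted subunit of BLOC-1, differed by 3.18-fold with signals of 988 and 1121 in Mc and 322 and 272 in DP. The calls of Hps3 and Rab32 were each lost without 1 array or another, at adjusted p values of up to 0.061 (Hps3, without DP replicate 2) and 0.17 (Rab32, without Mc replicate 2). Adaptor and tethering subunits used by every cell, such as Ap3s1 (813 and 776 in Mc and 823 and 688 in DP) and Vps41 (279 and 310.0 in Mc and 281 and 290.2 in DP), were not called. In the machinery that moves melanosomes, 3 of 8 were called, Mlph, the motor Myo5a (715 and 1361 in Mc and 426 and 221 in DP, 2.89-fold) and Sytl2 (529 and 677 in Mc and 181 and 116 in DP, 3.31-fold), and the median was 0.24. The call of Myo5a (adjusted p = 0.015) was lost without Mc replicate 2 (0.12) or DP replicate 2 (0.13).

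Over these 4 lists, 16 of 45 measured pigment genes were called higher in Mc and 0 higher in DP, beside 4.45% and 12.8% of all genes. Leaving out 1 array at a time left 15 called without Mc replicate 1, 10 without Mc replicate 2, 14 without DP replicate 1 and 10 without DP replicate 2, and 10 were called in every case.

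**Figure D2:**
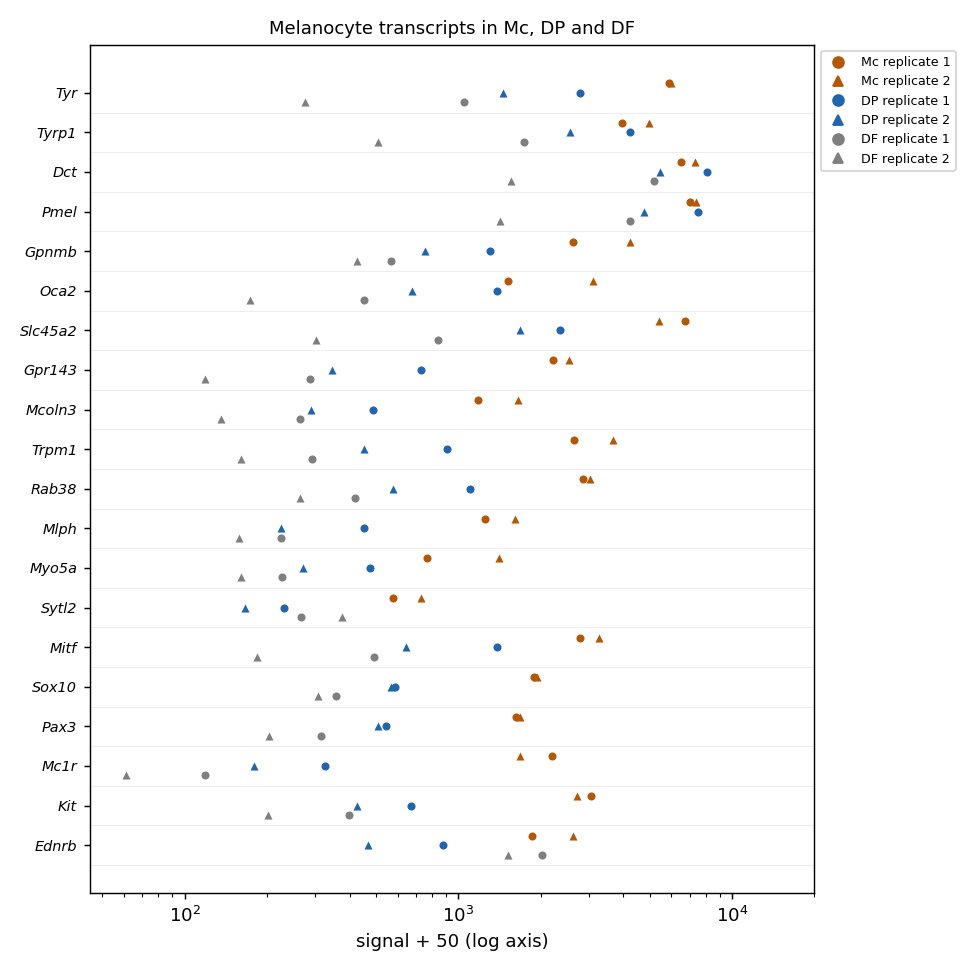
Signal + 50 on a log axis for 20 melanocyte transcripts (rows) on each array of Mc (brown), DP (blue) and DF (grey), with circles for replicate 1 and triangles for replicate 2. For Dct, Pmel and Tyrp1 the blue points reach the brown ones, while for Mc1r, Kit and Mlph they lie well to the left, and in most rows the blue circle lies to the right of the blue triangle.

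The share of the Mc signal that was present in DP differed widely from gene to gene. Relative to the mean of the Mc arrays, the DP arrays reached 118% and 78.9% for Dct, 104% and 66.0% for Pmel, 94.6% and 56.5% for Tyrp1 and 46.4% and 23.9% for Tyr. They reached 22.0% and 13.3% for Kit, 29.2% and 12.6% for Mlph and 14.5% and 6.83% for Mc1r. Among the 27 melanocyte genes (pigment lists, transcription factors and receptors) that were called higher in Mc and had a signal of at least 200 in both Mc arrays, DP replicate 1 held 13.6% to 62.7% of the Mc mean (median 31.9%) and DP replicate 2 6.83% to 64.3% (median 20.9%). The means of Mc and DP differed by 1.57-fold (Atp7a) to 9.37-fold (Mc1r). The brightest pigment probe-sets, such as Pmel and Dct, lay near the highest signal on the Mc arrays, 7481 and 7318. On the DP arrays the highest signals were 10234.1 and 8641.5. The part of signal saturation in these ratios was not tested.

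The DP replicates also differed from each other in these transcripts. Over all 32 pigment genes with a signal of at least 200 in both Mc arrays, called or not, DP replicate 1 exceeded replicate 2 for 22. DF replicate 1 exceeded DF replicate 2 for 22 as well. Across all 32 the median ratio of replicate 1 over 2 was 1.25 in DP and 1.23 in DF. Among the 27 genes picked by their call, DP replicate 1 exceeded DP replicate 2 for 24. Across all 27 the median ratio in DP was 1.44 and the highest was 2.53, that of Irf4. The corresponding median in Mc (replicate 1 over 2) was 0.923. Over the 23 papilla genes with a signal of at least 200 in both DP arrays, the DP replicates had a median ratio of 0.914 (range 0.625 to 1.38), and over all 3910 genes with such a signal the median was 0.98. A ratio of 1.5 or more was seen in 1.87% of those 3910 genes and in 15% of the 267 of them that were called higher in Mc. In DF, replicate 1 exceeded replicate 2 for 21 of the 27 genes, and the median ratio across all 27 was 1.58. The part of cells of another population in these values was not tested.

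Against DF, which holds dermal cells without the red reporter, 6 of the 45 pigment genes were called higher in DP and 0 lower, beside 4.42% of all genes called higher in DP than in DF. Slc45a2 was 2294 and 1629 in DP and 794 and 251 in DF (3.94-fold, adjusted p = 0.01), and Tyr 2725 and 1403 and 1001 and 226 (3.73-fold, adjusted p = 0.043). The others were Oca2 (3.47-fold, adjusted p = 0.042), Trpm1 (2.95-fold, 0.031), Rab38 (2.4-fold, 0.023) and Bloc1s5 (1.58-fold, 0.03). Dct had signals of 5119.8 and 1512 in DF and Pmel 4174 and 1371, so that these transcripts were also present outside the reporter gate, and the differences from DP had adjusted p values of 0.14 and 0.18. This count rests on single arrays: it was 0 without DP replicate 1, 10 without DF replicate 1 and 1 without DF replicate 2, and 2 after rescaling to equal medians. Mc1r was 274 and 129 in DP and 68.7 and 11.1 in DF (2.83-fold, adjusted p = 0.02). In matrix and outer root sheath the mean signal of Mc1r was 1.55 and 2.05, and that of Trpm1 18.7 and 25.5.

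Transcription factors of the melanocyte lineage followed, with 8 of 14 higher in Mc, 1 higher in DP and a median log2 difference of 1.07. Sox10, which activates Mitf, had 1835 and 1894 in Mc and 537 and 518 in DP and was 3.32-fold higher in Mc (adjusted p = 3.6e-05), and Pax3, its partner in the neural crest, had 1575 and 1633 in Mc and 495 and 459.6 in DP (3.14-fold, 0.00044). The DP replicates (1 over 2) stood at 1.04 for Sox10 and 1.08 for Pax3, beside 2.25 for Mitf. Mitf had 2736 and 3208 in Mc and 1334 and 594 in DP (3.19-fold, 0.028), and its call was lost without Mc replicate 1 (0.1), Mc replicate 2 (0.14) or DP replicate 2 (0.22), although a second probe-set was called at 3.17-fold (adjusted p = 0.0014). Without Mc replicate 1, Mc replicate 2 or DP replicate 2, 5 genes of the list were called higher in Mc.

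Tfap2a and Tfap2b, AP-2 factors of the neural crest, were 3.09-fold and 4.32-fold higher in Mc, with signals of 1055 and 636 in Mc and 156 and 147 in DP for Tfap2b. Irf4, which takes part in the control of tyrosinase, had 389.8 and 607 in Mc and 119 and 47 in DP (4.2-fold), and Tfeb, a master regulator of lysosome genes and relative of Mitf, 578 and 810.0 in Mc and 266 and 184 in DP (2.7-fold, adjusted p = 0.022). The call of Tfeb was lost without Mc replicate 1 (adjusted p = 0.055), Mc replicate 2 (0.14) or DP replicate 2 (0.16), and that of Sox5 (78.2 and 89.8 in Mc and 29.2 and 36.1 in DP) without any 1 of the 4 arrays (adjusted p = 0.08 to 0.13). Snai2, a neural crest factor whose loss is known to reduce melanoblasts, ran the other way, at 42.9 and 79.6 in Mc and 358 and 469 in DP (4.19-fold higher in DP, adjusted p = 0.00011). Lef1, whose promoter drives the red reporter, was at 138 and 124 in Mc and 101 and 103 in DP and at 35.9 and 46.4 in DF, and its log2 difference between Mc and DP was 0.25 ± 0.28 (adjusted p = 0.63).

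Receptors and ligands were divided between the populations. Of 13 measured receptors and signal transducers of melanocytes, 7 were higher in Mc (median 0.83) and 3, Fgfr2, Igf1r and Ntrk3, were higher in DP. The call of Igf1r was lost without any 1 of the 4 arrays. Of 14 ligands and related genes that act on melanocytes, among them Corin and Atrn, 0 were higher in Mc and 7 higher in DP (median -0.68). Over all genes 4.45% were higher in Mc and 12.8% in DP. Corin, Fgf7 and Bmp4 are also among the papilla markers below, a list drawn in part from genes that the study chose on these samples. Ednrb, the endothelin receptor, had 1804 and 2582 in Mc and 832 and 416 in DP (3.45-fold higher in Mc, adjusted p = 0.0023), but DF was as high, at 1976 and 1469. Its ligand Edn3 had 14.5 and 13.7 in Mc and 491 and 609.9 in DP (9.32-fold higher in DP, adjusted p = 1.5e-06), with 44.7 and 31.7 in DF, and a second probe-set of Edn3 was called at 15.2-fold. Edn1 was at 6.4 and 20.9 in Mc and 17.1 and 21.4 in DP and was not called.

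The antagonist of Mc1r showed the reverse of its receptor. Asip, which encodes agouti, had 15.4 and 28.3 in Mc and 976 and 1569 in DP (18-fold higher in DP, adjusted p = 1.5e-06), and 33.1 and 38.2 in DF. Corin, a serine protease of the papilla that is known to limit agouti action, had 6.3 and 14.2 in Mc and 1628 and 1902 in DP (30.1-fold). Pomc, the precursor of the agonist of Mc1r, had 74.4 and 105 in Mc and 88.4 and 88.2 in DP and was not called (adjusted p = 0.99).

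Kitl, the ligand of Kit, was low in both populations, at 36.1 and 85.2 in Mc and 83.1 and 129 in DP (adjusted p = 0.26), and higher in DF, at 676 and 902. Met, the receptor of hepatocyte growth factor, was 2.72-fold higher in Mc (196 and 287 in Mc and 58.4 and 53.5 in DP), and Hgf was at 27.8 and 25.7 in Mc and 56.6 and 41.8 in DP. Erbb3, a neuregulin receptor of the neural crest, had 1096 and 710.5 in Mc and 397 and 569 in DP (1.78-fold, adjusted p = 0.038), a call lost without Mc replicate 1 (0.28) or DP replicate 1 (0.22), with chip lot as a block (0.057) and in the 4 arrays alone (0.07). Gpr37, an orphan receptor, had 1309 and 1134 in Mc and 166 and 122 in DP and Adcy2, an adenylyl cyclase, 731 and 407 in Mc and 210.0 and 178 in DP, with the call of Adcy2 lost without DP replicate 2 (adjusted p = 0.052).

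**Figure D3:**
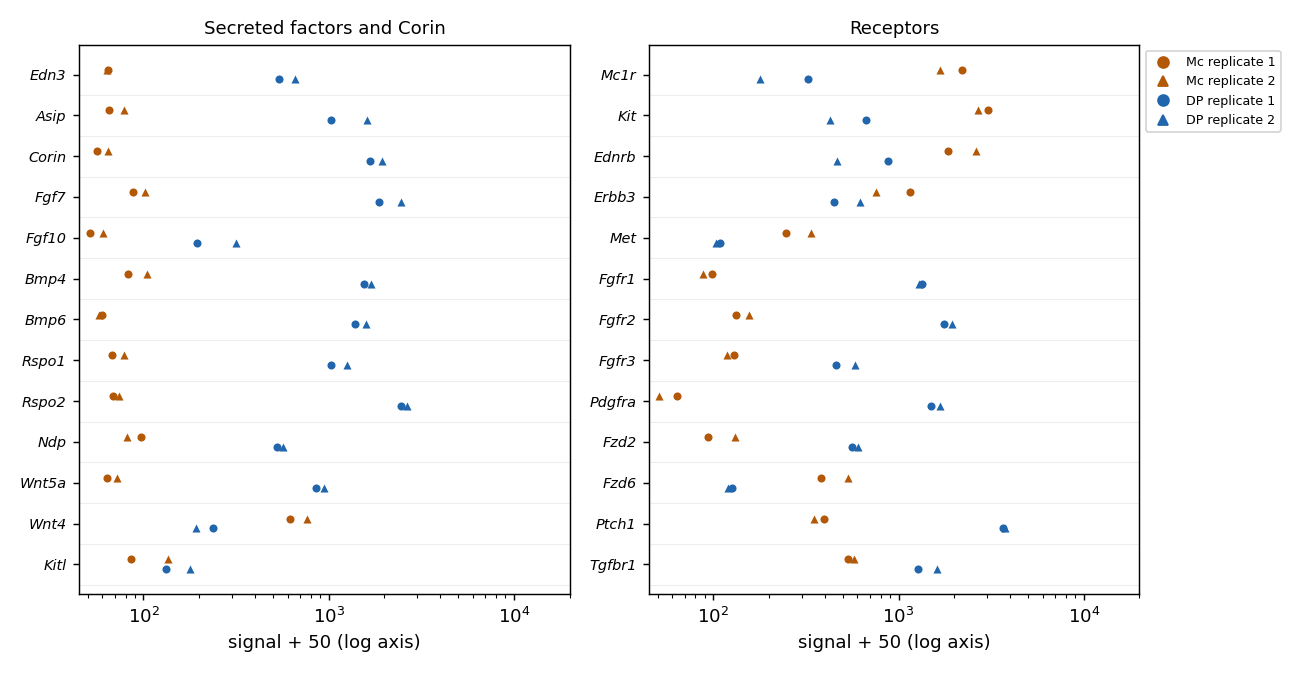
Signal + 50 on a log axis for secreted factors with Corin (left) and receptors (right) on each array of Mc (brown) and DP (blue), circles for replicate 1 and triangles for replicate 2. Wnt4 is the secreted factor with higher signals in Mc, Kitl is low in both, and on the right the first 5 receptors and Fzd6 are higher in Mc while the other 7 are higher in DP.

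The 15 leading genes of Mc, picked by size among called genes with a signal of at least 200 in both Mc arrays, ranged from 4.5-fold (Syngr1) to 7.98-fold (Mc1r). Besides Mc1r, Gpr37, Kit, Trpm1 and Gpr143 they held Npnt, the integrin ligand nephronectin (1082 and 985 in Mc and 148 and 90.6 in DP), Plat, tissue plasminogen activator (1821 and 1346 in Mc and 263 and 276 in DP), and Glrb, the beta subunit of the glycine receptor (488 and 585 in Mc and 68.9 and 52.7 in DP). Npnt was also at 910.2 on average in outer root sheath, and of its 4 other probe-sets 1 was called, at 3.63-fold. The rest were Trib1, a pseudokinase (4.97-fold), Eogt, a glycosyltransferase (4.9-fold), the long noncoding RNA Neat1 (4.75-fold), Mgll, monoacylglycerol lipase (4.62-fold), the beta-secretase relative Bace2 (4.58-fold), the metallothionein Mt1 (4.56-fold) and Syngr1. Bace2, which is known to cut Pmel, had 1976 and 2707 in Mc and 722 and 295 in DP. Leaving out any 1 of the 4 arrays kept 13 of these 15 calls; Mgll was lost without Mc replicate 2 (adjusted p = 0.074) or DP replicate 2 (0.077) and Bace2 without Mc replicate 2 (0.051).

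The 15 leading genes of DP spanned 24.7-fold (Lama2) to 78-fold (Crabp1), and all kept their call without any 1 array. Most of their Mc signals were low, so these sizes and their order depend on the pseudocount of 50. With a pseudocount of 1 the log2 difference was -9.29 for Crabp1 and -10.1 for Sostdc1. Crabp1, a retinoic acid binding protein, had 7.1 and 4.9 in Mc and 4369.5 and 4266 in DP, Sostdc1, an inhibitor of BMP and Wnt signals, 2.6 and 1.6 in Mc and 3259 and 3495 in DP, and Rspo2, an R-spondin that raises Wnt signals, 18.6 and 23.7 in Mc and 2421 and 2609 in DP. Both DP arrays lay above both Mc arrays in each of the 15, and for these 3 genes the DP replicates lay close together. Crabp1 and Rspo2 were also far below DP in DF (81.8 and 74.6 and 92.7 and 99.8), while Igfbp5, an IGF binding protein with 62 and 53.8 in Mc and 4190.3 and 4191 in DP, and Pcolce, an enhancer of procollagen processing with 57.7 and 39.3 in Mc and 3134 and 3533 in DP, were as high in DF (3024 and 4219 and 2652 and 3762). The others were Islr (33.1-fold), Corin, the Groucho co-repressor Tle2 (29.7-fold), the PDGF receptor Pdgfra (27.8-fold), Sox18 (26.9-fold), Fstl1 (25.7-fold), Bmp6 (25.3-fold), Hoxc8 (25-fold) and the noncoding RNA Meg3 (25-fold). All 30 leading genes kept their call after quantile normalization and after rescaling to equal medians.

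**Figure D4:**
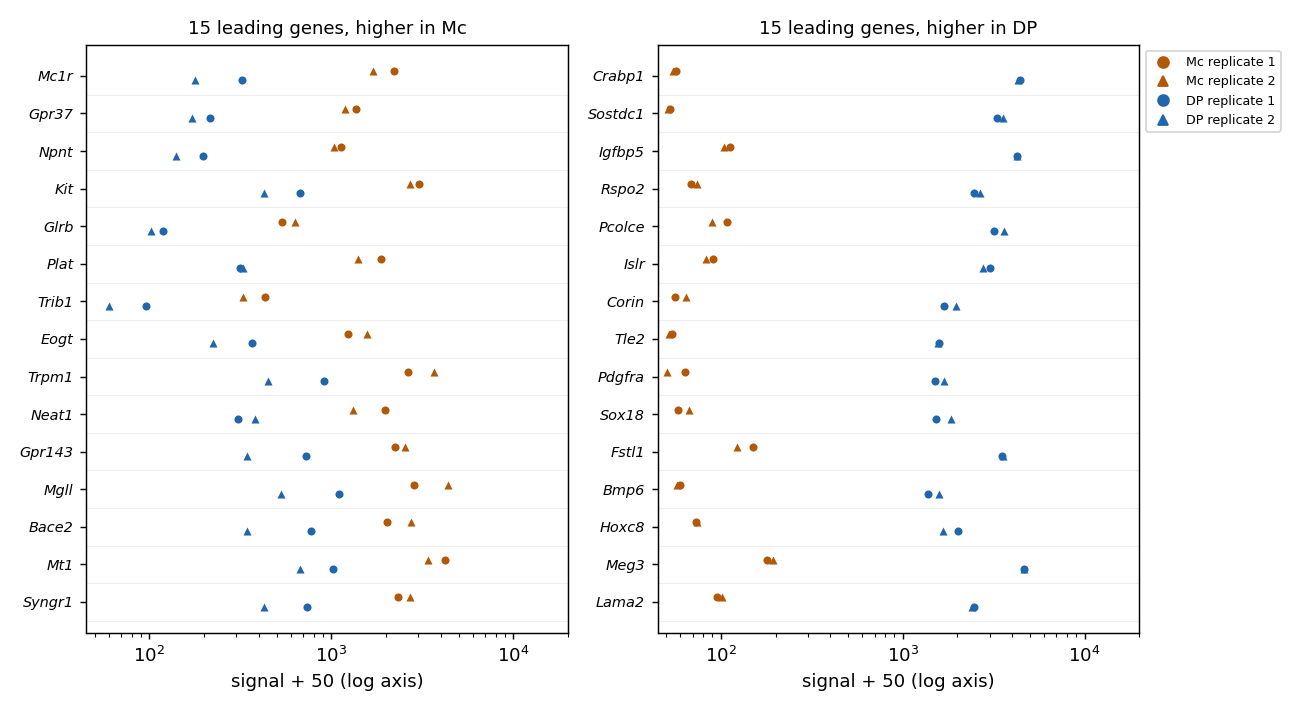
Signal + 50 on a log axis for the 15 leading genes higher in Mc (left) and in DP (right) on each array of Mc (brown) and DP (blue), circles for replicate 1 and triangles for replicate 2. On the left many DP points lie well above the low end of the axis, while on the right nearly all Mc points sit near it.

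As a description of the 23 papilla genes picked for a signal of 200 or more in both DP arrays, the Mc arrays held a median of 3.55% and 3.39% of the DP mean, and at most 121% and 159%, which were those of Lpl.

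Papilla markers were called higher in DP for 27 of 29 measured genes and in Mc for 0 (median log2 difference of -2.63). The exceptions were Lpl, lipoprotein lipase, at 1182 and 1555 in Mc and 883 and 1074 in DP (log2 difference 0.46 ± 0.30, adjusted p = 0.37), and Bmp7 at 128 and 231 in Mc and 377 and 480.4 in DP (-1.09 ± 0.38, 0.085). Bmp7 was called higher in DP with chip lot as a block (adjusted p = 0.023), in the 4 arrays alone (0.03) and under both filters on low signals (0.027 and 0.031). Alpl, alkaline phosphatase, the classical stain for the papilla, had 24.1 and 29.9 in Mc and 1747 and 1614 in DP (22.5-fold), and Vcan, the matrix proteoglycan versican, 141 and 100.2 in Mc and 3889 and 4012 in DP (23.6-fold). Wif1, a Wnt inhibitor, was also present in Mc (645 and 300.4 in Mc and 1416 and 1802 in DP, 3.34-fold). This list was in part drawn from genes that the study chose on these samples, so its direction is no independent evidence. Of the 27 calls, those of Alx4, Prom1, Itga8 and Itga9 were lost without 1 array or another, at adjusted p values of up to 0.25 (Alx4, without Mc replicate 1), 0.11 (Prom1, Mc replicate 2), 0.051 (Itga8, Mc replicate 1) and 0.15 (Itga9, Mc replicate 2).

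Neural and neural crest genes known from the papilla were higher in DP than in Mc for 21 of 26 and higher in Mc for 1, with a median of -1.79. This list, too, was drawn in part from genes that the study named for the papilla from these arrays, so its direction was set by that choice and is no independent evidence. Prss12, the neuronal protease neurotrypsin, had 106 and 211 in Mc and 4318 and 3666 in DP (20-fold), Twist1, a basic helix-loop-helix factor of mesenchyme, 10.3 and 11.2 in Mc and 787 and 880.0 in DP (14.5-fold), and Ncam1, the neural cell adhesion molecule, 158 and 230.0 in Mc and 1259.5 and 1142 in DP (5.17-fold). The low-affinity neurotrophin receptor Ngfr had 5.6 and 7.7 in Mc and 254 and 274 in DP, and the growth factor midkine, Mdk, 109 and 85.2 in Mc and 1073 and 1298 in DP. Tubb3, a neuronal beta-tubulin, was the 1 gene of the list higher in Mc, with 218 and 112 in Mc and 30.4 and 22.9 in DP (2.72-fold, adjusted p = 0.0021). The calls of Nes, Sema3a, Stmn2 and Gfra1 were lost without 1 or more arrays, at adjusted p values of up to 0.13 (Nes, without DP replicate 2), 0.25 (Sema3a, DP replicate 2), 0.055 (Stmn2, DP replicate 2) and 0.064 (Gfra1, Mc replicate 1).

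Position and lineage factors of mesenchyme were uneven. Of 31 Hox genes, which record position along the body, 12 were higher in DP and 0 in Mc (median -0.33), 0 reached a signal of 200 in both Mc arrays, and Hoxc8 was the brightest at 23.1 and 23.7 in Mc and 1966 and 1625 in DP. Of 40 mesenchymal transcription factors, 16 were higher in DP and 2 in Mc (median -0.37). Ebf1 had 1.3 and 1.4 in Mc and 1398 and 982 in DP (23.8-fold), Prrx1 31.2 and 16.6 in Mc and 1085 and 1131 in DP (15.7-fold) and Meis1 2 and 7.8 in Mc and 409.9 and 438 in DP (8.64-fold). Tbx2, a T-box factor with a known part in melanocyte growth, was higher in Mc (314 and 324 in Mc and 49.1 and 71.5 in DP, 3.36-fold, adjusted p = 0.00015) and as high in DF (273 and 364). Foxp1 was the other gene of that list higher in Mc, a call lost without Mc replicate 1 (adjusted p = 0.12), without Mc replicate 2 (0.14), and without DP replicate 1 (0.074) or 2 (0.18).

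In the Wnt pathway, 6 of 17 ligands and agonists were higher in DP and 1 in Mc (median -0.33). Of 16 receptors, 2 were higher in DP and 1 in Mc (median -0.20), near the 12.8% and 4.45% of all genes. Of 21 inhibitors and feedback genes, 10 were higher in DP and 2 in Mc (median -0.83). Wnt5a, Wif1, Sfrp2, Frzb and Sostdc1 were chosen by the study for the papilla on these arrays, so their direction is no independent evidence. The counts of ligands and of inhibitors hold these genes and are in part set by that choice. Wnt4 was the ligand of Mc, at 568 and 712 in Mc and 186 and 142 in DP (3.22-fold, adjusted p = 0.0012), and Wnt5a that of DP, at 13.7 and 22.3 in Mc and 806 and 888 in DP (13.2-fold). Fzd6 was higher in Mc (331 and 485 in Mc and 75.7 and 69.4 in DP) and Fzd2 in DP (44.1 and 81.4 in Mc and 512 and 555 in DP). Among inhibitors, Dkk3 was 3.63-fold and Nkd1 2.16-fold higher in Mc, with 998 and 973 in Mc and 239.7 and 231 in DP for Dkk3 and 354 and 293 in Mc and 119 and 126 in DP for Nkd1, whereas Sfrp1 (19.8 and 38.6 in Mc and 1197 and 1675 in DP), Sfrp2 (51.8 and 49.5 in Mc and 1466 and 1454 in DP) and Notum (399 and 218 in Mc and 1187 and 1041 in DP) were higher in DP. Axin2, a direct target of beta-catenin, was present in both, at 458 and 667 in Mc and 456 and 422 in DP (log2 difference 0.30 ± 0.20, adjusted p = 0.37) and at 144 and 122 in DF, from which DP differed by 2.68-fold (adjusted p = 0.0013).

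Of the BMP, FGF and Hedgehog genes that were called, most were higher in DP, beside 12.8% of all genes higher in DP and 4.45% in Mc. Bmp4, Bmp6, Gdf10, Inhba, Tgfbr1, Nog, Fst, Bambi, Fgf10, Fgfr1 and Ptch1 were chosen by the study for the papilla on these arrays. The study also placed downstream Hedgehog genes among its papilla genes, and reported Fgf7 and Hhip as high in DP on these arrays. The direction of these genes is therefore no independent evidence, nor are the list counts that hold them. Of 24 BMP and TGF-beta ligands and receptors, 10 were higher in DP and 0 in Mc (median -0.51), and of 16 BMP inhibitors and Id targets 10 and 0 (median -0.75). Bmp4 had 32.6 and 54.1 in Mc and 1498 and 1640.1 in DP and the BMP relative Gdf10 12 and 16.6 in Mc and 1450.4 and 1185 in DP, and of the inhibitors Nog, noggin, had 12 and 34.6 in Mc and 136 and 167 in DP and Fst, follistatin, 58.2 and 40.7 in Mc and 1949 and 1669 in DP. The Id genes, targets of BMP signals, did not share 1 pattern, with Id1 at 176 and 123 in Mc and 879 and 827 in DP (4.57-fold higher in DP, adjusted p = 0.0026) and Id2 at 1250.2 and 1840.3 in Mc and 1231 and 1319.6 in DP (adjusted p = 0.73). Without DP replicate 2 the count of inhibitors and Id targets was 6.

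Of 23 FGF genes, 10 were higher in DP and 3 in Mc (median -0.31). Fgf7, a growth factor for epithelium, had 37.3 and 52.2 in Mc and 1826 and 2414 in DP and Fgf10 1.7 and 10.5 in Mc and 143 and 265 in DP. The receptors Fgfr1 (48.8 and 37.6 in Mc and 1290.3 and 1247 in DP) and Fgfr2 (82.2 and 105 in Mc and 1706 and 1885 in DP) were higher in DP, as were the feedback inhibitors Spry1 (198 and 252 in Mc and 956 and 864 in DP) and Spry2 (202 and 179 in Mc and 529 and 579 in DP). The genes higher in Mc were Dusp6, a phosphatase of ERK (719 and 500.1 in Mc and 238 and 249.9 in DP, 2.21-fold), and the ETS factors Etv4 (195 and 80.9 in Mc and 13.4 and 12.7 in DP, 2.84-fold) and Etv5 (895 and 442 in Mc and 138 and 148 in DP, 3.53-fold), all of which are known to follow ERK signals.

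In the Hedgehog pathway 7 of 12 genes were higher in DP and 1 in Mc (median -1.09), beside 12.8% and 4.45% of all genes. The study chose Ptch1 and downstream Hedgehog genes for the papilla on these arrays, so this count is no independent evidence. The receptor Ptch1, which is also a target of the pathway, had 347 and 299.5 in Mc and 3601 and 3690.3 in DP (9.92-fold, adjusted p = 6.4e-06), the inhibitor and target Hhip 12.7 and 16.3 in Mc and 1423 and 1643 in DP (24.5-fold), and Gli1 20.7 and 38.6 in Mc and 523 and 380.3 in DP (6.27-fold). The 1 gene higher in Mc was Shh, at signals of 15.6 and 21.3 in Mc and 6.7 and 5.7 in DP, low on all 4 arrays, and its call was lost without any 1 of them (adjusted p = 0.064 to 0.2) and with chip lot as a block (0.056). The PDGF, IGF and EGF families held 12 of 24 genes higher in DP and 1 in Mc (median -0.75), Notch genes 7 of 19 and 0 (median -0.45), retinoid genes 5 of 16 and 1 (median -0.42), and axon guidance genes 19 of 41 and 3 (median -0.57). The PDGF, IGF and EGF count holds Pdgfra, which the study chose for the papilla on these arrays. Rarb, a retinoic acid receptor, was the retinoid gene of Mc (320.1 and 368 in Mc and 141 and 121 in DP, 2.18-fold), beside Crabp2 in DP (4.8 and 6.3 in Mc and 641 and 782 in DP, 13.7-fold), and Plxnc1, a semaphorin receptor of melanocytes, was 3.06-fold higher in Mc (861 and 1225 in Mc and 335 and 271 in DP). Without either DP array 1 axon guidance gene, and without Mc replicate 1 or DP replicate 1 none of the growth factor families, was called higher in Mc.

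Adhesion and matrix genes set the populations apart. Cadherins that bind melanocytes to keratinocytes were higher in Mc, Cdh1 (E-cadherin) at 473 and 525 in Mc and 156 and 93 in DP (3.19-fold, adjusted p = 0.00047) and Cdh3 (P-cadherin) at 464 and 697 in Mc and 121 and 92 in DP (3.97-fold, 0.00021). The mesenchymal Cdh11 had 123 and 48 in Mc and 2119 and 2731 in DP (18.8-fold higher in DP) and Cdh2 (N-cadherin) 87.5 and 127 in Mc and 291 and 284 in DP (2.17-fold), and with Cdh10 they made 3 of 10 cadherins higher in DP against 2 in Mc (median -0.33). Of 36 collagens and other fibroblast matrix genes, 25 were higher in DP and 0 in Mc (median -2.16), among them Col6a1 (76.8 and 79 in Mc and 2409 and 2423 in DP), Col4a1 (93.9 and 97.9 in Mc and 3207 and 3662 in DP) and Fbln2 (119 and 120.3 in Mc and 3467 and 3105 in DP). Sparc was at 4216 and 2283 in Mc and 4192 and 4752 in DP and was not called (adjusted p = 0.34), with Mc replicate 1 near the DP arrays. Col1a1 (640.3 and 199 in Mc and 842 and 923 in DP) was likewise not called (adjusted p = 0.15).

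Proteoglycan genes were higher in DP for 14 of 26 and in Mc for 1 (median -0.93). Matrix proteases and inhibitors were so for 14 of 28 and 2 (median -0.58) and integrins for 5 of 13 and 0 (median -0.53). Over all genes 12.8% were higher in DP and 4.45% in Mc. The proteoglycan of Mc was Gpc1, glypican 1, at 1857 and 1674 in Mc and 528 and 368 in DP (3.69-fold, adjusted p = 0.00074). The proteases of Mc were Plat and Adam10 (1938 and 2206 in Mc and 944 and 1160.0 in DP, 1.93-fold), the latter a call lost without Mc replicate 2 (adjusted p = 0.081) or DP replicate 1 (0.078). Other probe-sets of Adam10 were called higher in Mc at 1.79-fold and 2.15-fold (adjusted p = 0.019 and 0.012). Without DP replicate 2, 9 proteases and inhibitors were called higher in DP, and 3 integrins were called without Mc replicate 1, DP replicate 1 or DP replicate 2.

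Of 40 lysosome and proton pump genes, 17 were higher in Mc and 3 higher in DP, with a median log2 difference of 0.60. The proton pump subunit Atp6v1b2 had 1869.5 and 2719.6 in Mc and 849.7 and 474 in DP (3.36-fold, adjusted p = 0.0018), its membrane subunit Atp6v0a1 880.0 and 1316 in Mc and 409.7 and 251 in DP (3.03-fold, 0.0038) and the protease cathepsin C, Ctsc, 1650.4 and 1421 in Mc and 497 and 524 in DP (2.82-fold, 0.00015). Both Mc arrays lay above both DP arrays for these 3 genes, and for Atp6v1b2 and Atp6v0a1 DP replicate 1 again lay above replicate 2. The genes higher in DP were Ctsk, the collagen-cutting cathepsin K (34.8 and 44.6 in Mc and 392 and 445 in DP, 5.22-fold), Scarb2 (668 and 697 in Mc and 2322 and 2678 in DP, 3.47-fold) and Ctsf, whose call (adjusted p = 0.036) was lost without Mc replicate 2 (0.23), DP replicate 1 (0.089) or DP replicate 2 (0.18) and with chip lot as a block (0.051). The count higher in Mc was 7 without Mc replicate 2 or DP replicate 2, and 24 and 29 after quantile normalization and rescaling to equal medians. CACGTG was in the promoter of 4 of 13 lysosome genes called higher in Mc and of 10 of the other 20 with a promoter.

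Immediate early genes, which respond within minutes to growth factors and to tissue handling, were higher in DP for 18 of 25 and in Mc for 1 (median -1.65). Egr1 had 528 and 523 in Mc and 5153 and 5724 in DP (9.52-fold, adjusted p = 3.4e-06), Fos 1672 and 1697 in Mc and 5539.7 and 5756 in DP (3.28-fold, 0.00023) and Junb 201 and 213 in Mc and 1921 and 1755 in DP (7.34-fold, 1.5e-06). Both Mc arrays lay well below both DP arrays for these, and DF was at 3889 and 4962 for Egr1 and 5357 and 6566 for Fos. Myc, a growth regulator, was the gene higher in Mc (176 and 208 in Mc and 91.3 and 76.5 in DP, 1.81-fold, adjusted p = 0.011), a call lost without Mc replicate 2 (0.084) or DP replicate 2 (0.091). Mc and DP were isolated through different depletion and labelling steps, and the part of handling in this difference cannot be told apart from cell type.

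Calls of growth and energy genes are given beside the 4.45% of all genes higher in Mc and the 12.8% higher in DP. Of 29 S phase and mitosis genes, 0 were called (median 0.32, with 7 higher in Mc under each of the other scalings), of 27 ribosomal protein genes 0 were called and the median of -0.11 turned to 0.04 after quantile normalization and 0.29 after rescaling, and of 39 oxidative phosphorylation genes 2 were higher in Mc (median 0.40, 16 and 11 under those scalings). The proliferation marker Mki67 had 460.3 and 424 in Mc and 375 and 334 in DP and Pcna, the replication clamp, 2179.6 and 1913 in Mc and 1609.9 and 1445 in DP. Of 15 cyclin D and CDK inhibitor genes, 2 were higher in Mc and 3 in DP (median -0.30, and 0.06 after rescaling to equal medians), with Cdkn1c, the inhibitor p57, at 41.8 and 18.1 in Mc and 354 and 327 in DP (4.94-fold higher in DP). Cdk2, a kinase gene that lies within the span of Pmel on GRCm38.p6, had 1565 and 2864 in Mc and 1050.4 and 675 in DP (2.43-fold higher in Mc, adjusted p = 0.033), and its call was lost without Mc replicate 2 (0.22) or DP replicate 2 (0.23). Leaving out 1 array left 0 or 1 oxidative phosphorylation genes called.

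**Figure D5:**
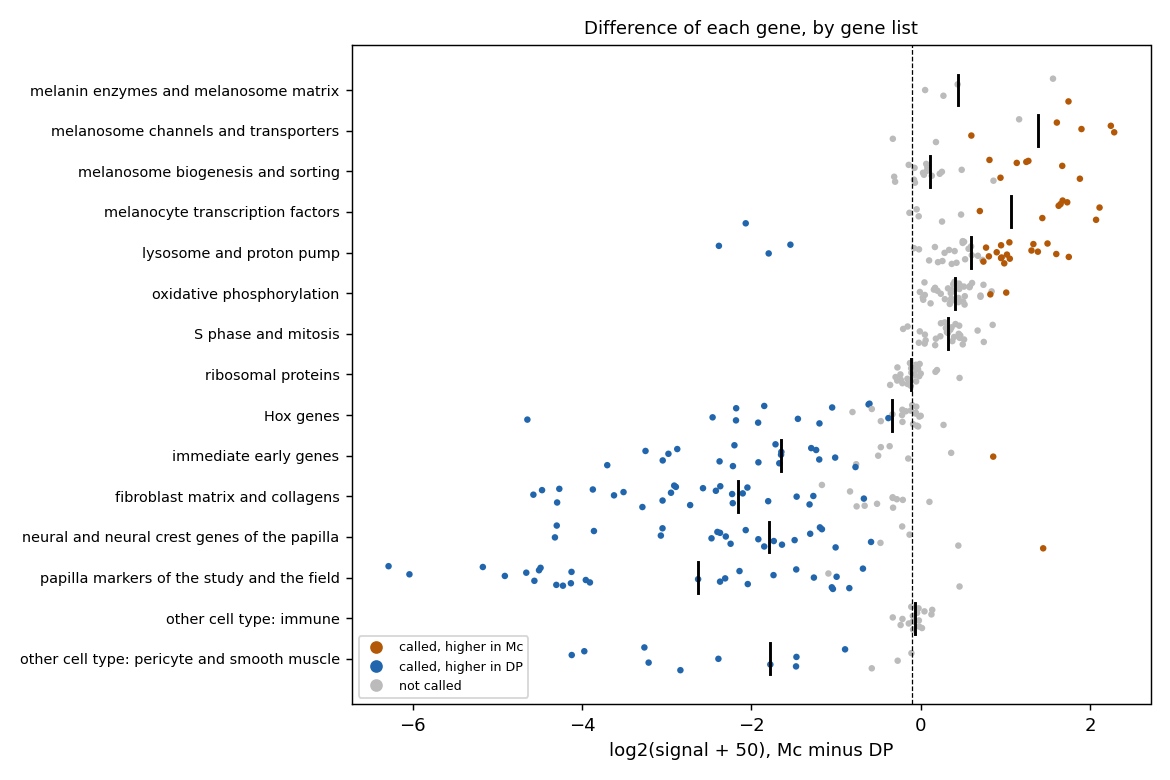
Log2 difference, Mc minus DP, of every measured gene of 15 lists (rows), each point 1 gene, brown where called higher in Mc, blue where called higher in DP and grey where not called, with a black bar at the median of the list and a dashed line at the median of all genes (-0.10). Melanosome channels, melanocyte transcription factors and lysosome genes lie to the right, and ribosomal genes near the dashed line. The medians of S phase and mitosis (0.32) and oxidative phosphorylation (0.40) lie to the right of that line. Papilla, neural, matrix and pericyte genes lie far to the left.

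Of 26 genes for metals and redox balance, 6 were higher in Mc and 2 in DP (median 0.34). Mt1 had 4136 and 3335 in Mc and 969 and 619.7 in DP and Mt2 3809 and 3055 in Mc and 1012 and 1008 in DP (4.56-fold and 3.27-fold, adjusted p = 0.0021 and 0.00062), and both metallothioneins were also high in matrix, at 4862 and 7706 on average. Slc7a11, the cystine transporter that supplies the precursor of yellow pigment, had 382 and 145 in Mc and 57.1 and 75.9 in DP (2.5-fold, adjusted p = 0.021), a call lost without Mc replicate 1 (0.098), DP replicate 1 (0.11) or DP replicate 2 (0.075). Without Mc replicate 1 or either DP array the count of this list higher in Mc was 2. Gpx3, a secreted peroxidase, was 8.66-fold higher in DP (39.8 and 41.4 in Mc and 709.9 and 759 in DP).

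Markers of other cell types were counted beside the 12.8% of all genes that were higher in DP and the 4.45% higher in Mc. Of 13 pericyte and smooth muscle genes 10 were higher in DP (median -1.78), Rgs5 at 40.8 and 39.2 in Mc and 934 and 1983 in DP and Acta2 at 169.8 and 163 in Mc and 1592 and 2576 in DP, with higher values in DF (6184 and 6114 and 8748 and 8536), and their signals summed to 532 and 576 on the Mc arrays and 5633 and 8936 on the DP arrays. On the same DP arrays the papilla list summed to 37195 and 40098 and the fibroblast matrix list to 52389 and 57204. The part of pericytes and smooth muscle cells in the papilla and matrix differences above was not tested. Fibroblast genes were higher in DP for 8 of 12 (median -1.41), Col1a2 at 1131 and 819 in Mc and 8060.5 and 7124 in DP, and endothelial genes for 4 of 15 (median -0.23), with Cdh5 at 33.2 and 28.8 in Mc and 38.5 and 33.5 in DP and a count of 2 without either Mc array and 1 without DP replicate 2.

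Of 12 Schwann cell and glia genes, 6 were higher in DP and 2 in Mc (median -0.95). Mbp, a myelin protein, had 23.8 and 22.1 in Mc and 169.6 and 443 in DP and was at 2054 and 1490.5 in DF, while Fabp7, a fatty acid binding protein of glia and melanocytes, had 1057 and 1072 in Mc and 297 and 414 in DP (2.77-fold higher in Mc, adjusted p = 0.0012). Mast cells also carry CD117, and of 10 mast cell genes 1 was higher in Mc, the tryptase Tpsb2, at 263 and 365 in Mc and 91.1 and 58.5 in DP (2.91-fold, adjusted p = 0.00062), with signals of the list summing to 551 and 756 in Mc and 413 and 493 in DP. Of 16 immune and 5 erythroid genes 0 were called (medians -0.07 and -0.10, the first turning to 0.12 and 0.09 under the other scalings). Follicle epithelium genes were higher in DP for 2 of 22 (median -0.68), with inner root sheath keratin Krt25 at 437 and 363 in Mc and 911 and 866 in DP (adjusted p = 0.17) beside a mean of 6271 in matrix, and Krt14 at 57.2 and 45.1 in Mc and 128 and 102 in DP, and that count was 0 without either Mc array or DP replicate 2. Of 12 skeletal muscle genes 1 was higher in each population, that of Mc lost without any 1 array (median -0.04, and 0.11 and 0.07 under the other scalings), and of 8 adipocyte genes 1, Cebpa (42.8 and 48.5 in Mc and 2295 and 1865 in DP), was higher in DP (median -0.01, and 0.04 and 0.03).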

How the data were processed

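Cells of 5 populations were sorted from backskin and 10 arrays were hybridised. The deposited values are signal intensities made by the authors with the MAS 5.0 algorithm on the Affymetrix MOE430A array, 1 per probe-set, scaled per their methods to a common target of 500, with no detection call in the table used here. Genes were named through the platform annotation, and agouti, listed there by its 1-letter symbol, is called Asip.

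From these, log2(signal + 50) was fitted with limma 3.58.1 in R 4.3.3 over all 10 arrays (a mean per population, moderated variance with a mean trend, 5 residual degrees of freedom), with Benjamini-Hochberg adjustment over 22626 probe-sets after 64 controls were left out. The fit was tested on simulated data. Named genes were the 5 markers, 15 leading genes per direction (called, at least 200 in both arrays of the higher population, arrays not overlapping), members of 44 gene lists and genes the study names. Members and lists were chosen with earlier results of these data known. With 2 arrays per population precision is limited by their number. Alternatives were other pseudocounts, filters, scalings, blocks and leaving out each array of Mc, DP and DF. No array of matrix or outer root sheath was left out. Other columns of the authors were not used. RefSeq promoters were searched as strings, and 23 of 32 pigment genes and 14 of 23 papilla genes had one.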

Additional observations from a re-analysis of the deposited data

How the results depend on the processing

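Over the 15 alternatives run, no called gene of the 170 named ones changed sign. Genes without a call did, 4 of them without Mc replicate 2, 3 without DP replicate 2 and 1 each without Mc replicate 1, after quantile normalization and after rescaling to equal medians. Calls were lost for 0 to 24 of them (0 with the signal filters, where 143 and 151 of the genes were tested, and 24 without DP replicate 2), and gained for at most 3.

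Probe-sets higher in Mc numbered 1862 after quantile normalization and 2287 after rescaling to equal medians, and those higher in DP 1592 after rescaling, 1305 with a signal of 200 in both arrays of Mc or DP required and 1557 with that in any population. At least 2-fold higher in Mc were 641 with a pseudocount of 1, 625 after quantile normalization and 911 after rescaling, and in DP 1888 and 2147 with pseudocounts of 16 and 1 and 803 with the filter on Mc or DP. Leaving out 1 array gave 418 to 656 higher in Mc and 1403 to 2080 higher in DP, and 289 to 437 and 1009 to 1371 of at least 2-fold. Pigment genes higher in DP than in DF numbered 2 after rescaling, 0 with 4 arrays only, 3 without the mean-variance trend and 0 to 10 with 1 array left out. The cause of these shifts was not tested.

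Replicate numbers are shared by all populations, but were not taken to pair the samples, since the labels do not say so and not every pair of populations reached the bound: deviations of same-numbered arrays correlated above 0.1 in 5 of 10 pairs of populations (-0.047 to 0.271, Mc with DP -0.028). With the replicate block 1073 probe-sets were higher in Mc and 2711 in DP, 416 and 1244 of them at least 2-fold, and 6 pigment genes were higher in DP than in DF. With it Tyr (adjusted p = 0.049) and Bmp7 (0.0084) were also called and Shh (0.052) was not. Within each chip lot, a check chosen after seeing the data, all 2141 called genes had the sign of the fit; with the lot as a block 922 and 2481 probe-sets were called. Intensities without detection calls leave the lowest signals without an order.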
